A study of Solanum lycopersicum with 6 samples.

Results

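Extensins, glycine-rich proteins, proline-rich proteins and arabinogalactan proteins, the structural proteins and proteoglycans of the plant cell wall, were followed in the outer fruit layer (exocarp) of tomato. A gene was taken as a member when its product description named an extensin, a glycine-rich or proline-rich protein, an arabinogalactan or a fasciclin domain and did not name an RNA-binding, kinase, lipid-transfer or late embryogenesis protein. This gave 79 of the 21708 genes listed in any library, namely 27 extensins, 20 glycine-rich proteins, 4 proline-rich proteins, 12 arabinogalactan proteins and 16 fasciclin-like proteins. The groups were 3 wild-type libraries (WT) and 3 libraries labelled as knockout of SlNOR-like1 (nor-like1), a NAC family transcription factor, all from exocarp at the stage labelled MG. The sources used here give no cultivar, mutant allele, fruit age or number of plants per library. A p-value here therefore reflects library-to-library spread, which may be technical.

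Extensins are rod-like glycoproteins rich in hydroxyproline that peroxidases can cross-link into a network in the wall. Glycine-rich and proline-rich proteins are further structural wall proteins, many of them repetitive and made by particular cell types. Arabinogalactan proteins are heavily glycosylated proteoglycans of the wall and the cell surface, often held by a lipid anchor, and the fasciclin-like group carries a domain known from cell adhesion proteins in animals. Before secretion, prolyl 4-hydroxylases turn proline into hydroxyproline, and arabinosyltransferases and galactosyltransferases add sugars to it.

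The descriptions do not all hold up against the best protein hit in the same tables. That hit named one of the families for 45 members, another protein for 32, and was blank for 2. The gene described as extensin X55684 (Solyc04g015450.3) had translation factor GUF1 as its hit, an abundant glycine-rich protein (Solyc11g013100.2) had selenoprotein K, and a gene described as arabinogalactan (Solyc05g018320.3) had the ninja-family protein mc410, of a family that represses jasmonate signalling. Such genes were kept, because the description defines the set, and their hit is given where they are named. Among the 12 members that rose in nor-like1, 8 had a hit that named one of the families, as had 1 of the 5 members that fell and 15 of the 31 tested members not called, a difference that was not tested.

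Total expected counts ran from 8503210 to 17578533 per library, each WT library being deeper than each nor-like1 library. SlNOR-like1 itself (Solyc07g063420.3) measured 83.8, 75.2 and 81.2 FPKM (fragments scaled by transcript length and by library size) in WT and 16.0, 10.9 and 11.7 FPKM in nor-like1 (log2 fold change -2.61, SE 0.162, adjusted p = 0.000532). Values are given for replicates 1 to 3 in that order here and below. On the first principal component, WT replicate 3 was the WT library closest to the mutant. The epidermis and cuticle marker list matched 3 genes by name only (ECERIFERUM 1, 3 and 7), and not each need be particular to that tissue. All were above 0 in every library, with a summed level of 250 to 367 FPKM in WT and 782 to 961 FPKM in nor-like1. Most of that sum was a single gene, ECERIFERUM 3 (Solyc03g117800.4), at 234 to 344 FPKM in WT and 749 to 921 FPKM in nor-like1. The single xylem marker, a xylem cysteine proteinase, ranged from 17.9 to 19.8 FPKM in WT and from 23.7 to 29.3 FPKM in nor-like1. Of 19 seed marker genes, 10 to 15 were above 0 in a library, with a sum of 25.06 to 40.02 FPKM in WT and 17.88 to 22.77 FPKM in nor-like1, and the highest value in any library was 12.83 FPKM for the 8 oleosins, 2.44 FPKM for the 9 vicilin or legumin genes and 0.04 FPKM for the 2 11S globulins. Of 17 phloem marker genes, 9 to 14 were above 0, with sums of 73.1 to 81.7 FPKM in WT and 54.4 to 94.2 FPKM in nor-like1, while the 5 sieve element occlusion genes stayed at or below 0.39 FPKM. The part of these cell type markers in the results below was not tested, and fewer cells of a type cannot be told apart from less RNA per cell.

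Loss of SlNOR-like1 went with more transcript of a few members, some of which were close to undetected in WT, while most of the tested members were not called. Of 48 members with enough counts to test, 12 were higher and 5 lower in nor-like1 at an adjusted p below 0.05 (edgeR quasi-likelihood test, adjusted over all genes), and 31 were not called. Of all 16380 genes tested, 21.9% were called, 10.5% higher and 11.4% lower. Of the 12 members called higher, 2 (Solyc02g089250.4 and Solyc09g098510.4) had every WT library under the level of the filter on low counts, 10 counts at the median depth. They passed it through nor-like1 alone and so had to differ. The filter asks for 3 libraries above that level. At least Solyc01g006390.2 and Solyc09g092720.3, with summed WT counts of 20 and 32, also passed it only with their nor-like1 libraries. Without the first 2 genes, 10 of 46 members were called higher, 9 of them at least 2-fold and 3 at least 10-fold. This count was added after seeing the data and still holds Solyc01g006390.2, which is among the 3, and Solyc09g092720.3. The shares of all genes leave out no such genes, so this count has no like background. With all 12 kept, 11 changed at least 2-fold and 5 at least 10-fold, where 5.48% and 1.1% of all genes did so. Of the members called lower, 2 changed at least 2-fold, against 2.89% of all genes. The median log2 fold change of the tested members was -0.07 (quartiles -0.34 and 0.98), against -0.01 (quartiles -0.30 and 0.32) for all genes. FPKM did not overlap between the genotypes for 30 of the 48, against 42.8% of all genes.

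These counts depended on single libraries, as did the background. Without WT replicate 2 the test called 7 of 51 members higher and 0 lower, against 3.59% and 3.27% of all genes. At an unadjusted p under 0.05, 13 of the 51 members were higher and 9 lower in that edgeR refit, against 13.7% and 14.4% of all genes. With all 6 libraries 25 of the 48 tested members passed at that level, against 37.9% of all genes. Leaving out WT replicate 1 gave 8 members higher and 2 lower of 51 tested, where 4.79% and 4.27% of all genes were called. For nor-like1 replicate 2 the counts were 8 and 3 of 48 tested, against 4.51% and 3.99%. For nor-like1 replicate 3 they were 8 and 1 of 48 tested, against 5.14% and 4.8%. Leaving out WT replicate 3 gave 16 higher and 4 lower of 51 tested, with 14.1% and 14.4% of all genes called, and 16 of the 17 members called with all libraries were among them. All 17 had the same sign in the authors' deposited table of DESeq2 results, which comes from the same study and is no independent check.

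**Figure D1:**
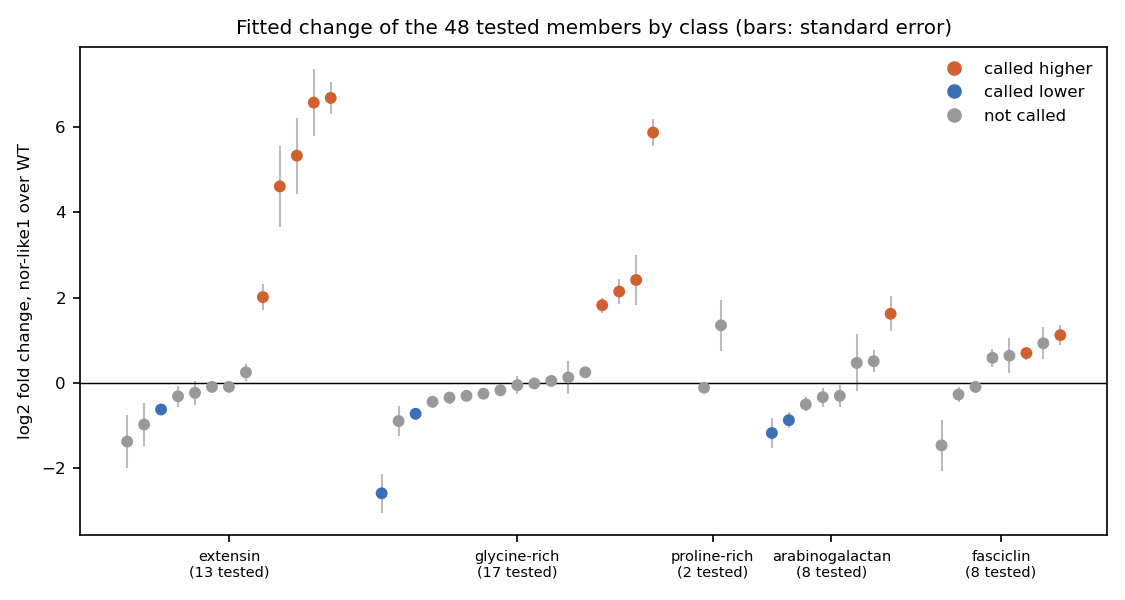
Fitted log2 fold change of nor-like1 over WT (vertical axis) with its standard error for the 48 tested members, grouped by class along the horizontal axis and coloured by call. The extensin and glycine-rich classes hold the 5 members that rose at least 10-fold, and most other members sit near 0. Of these 5, 2 extensins had every WT library under the level of the filter on low counts. A further extensin, Solyc01g006390.2, passed the filter only with its nor-like1 libraries.

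In all, the members made up 0.348% to 0.377% of the summed FPKM of a WT library and 0.569% to 0.67% of a nor-like1 library. The summed level of the members was 2339, 2483 and 2613 FPKM in WT and 4079, 3835 and 4715 FPKM in nor-like1. Their mean rose from 2478 ± 137 to 4210 ± 454 FPKM (SD, n = 3 each), a ratio of 1.70 that is a description with no test. Just 4 genes, 3 glycine-rich and 1 extensin, gained more than the whole net difference (112% of it), the gains being partly offset by members that were lower. Mean levels went from 260, 158, 4.63 and 5.77 FPKM in WT for Solyc10g009190.1, Solyc09g097780.2, Solyc01g006400.4 and Solyc09g097760.3 to 927, 685, 431 and 331 FPKM in nor-like1. The ranking of members by level changed with them: Solyc01g006400.4 was 32nd among members in WT and 4th in nor-like1, and Solyc09g097760.3 went from 29th to 5th. By class, the glycine-rich sum went from 1269 ± 73.9 to 2508 ± 334 FPKM and the extensin sum from 778 ± 69.3 to 1209 ± 173 FPKM. Fasciclin-like proteins summed to 199 ± 23.8 and 272 ± 16.3 FPKM and arabinogalactan proteins to 205 ± 12.6 and 183 ± 18.7 FPKM.

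**Figure D2:**
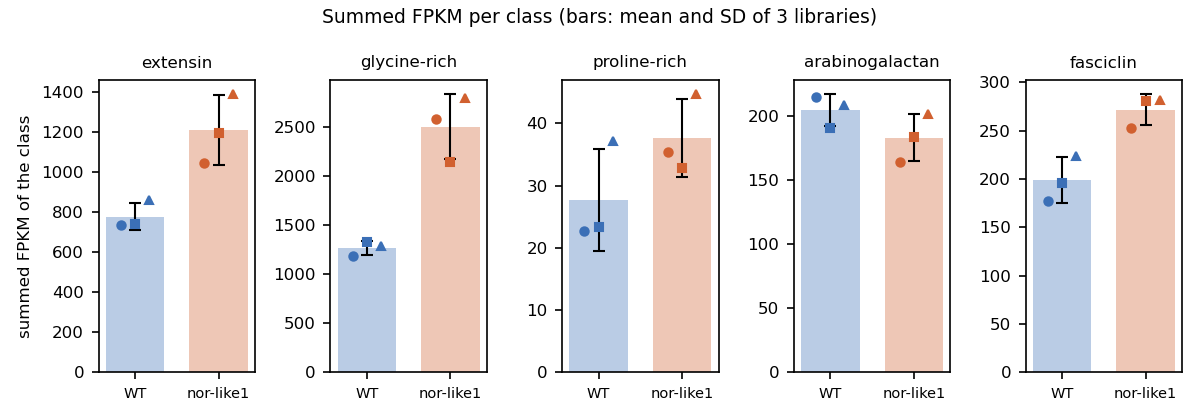
Summed FPKM of each class in WT and nor-like1 (separate vertical axes from 0), with bars for the mean, error bars for the SD of 3 libraries and a symbol per library. The glycine-rich and extensin sums of the nor-like1 libraries all lie above those of the WT libraries, while the arabinogalactan sums overlap.

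Among extensins, several of the genes that rose are described as pistil extensins, a group named for expression in the flower's female organ. Of 5 such genes, 4 were tested and 3 were called higher, where 10.5% of all genes were. The summed level of the 5 was 8.19, 15.6 and 27.2 FPKM in WT and 481, 417 and 634 FPKM in nor-like1. The grouping of extensins by words in their description was made after their values were seen. Over the whole class, 13 of 27 genes were tested, with 5 higher (38.5%), 1 lower (7.69%) and 7 not called. Of all genes, 10.5% were called higher and 11.4% lower. The class median log2 fold change was -0.09 with an upper quartile of 4.60. Of the 5 called higher, 2 (Solyc02g089250.4 and Solyc09g098510.4) passed the filter on low counts through nor-like1 alone. The pistil extensin Solyc01g006390.2 also passed it only with its nor-like1 libraries. The upper quartile is the value of Solyc02g089250.4.

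The pistil extensin Solyc01g006400.4, whose best protein hit is Hop-interacting protein THI101, measured 1.10, 2.59 and 10.2 FPKM in WT and 405, 360.4 and 529 FPKM in nor-like1. Every nor-like1 library was far above every WT library, and WT replicate 3 was the highest of the WT libraries. The log2 fold change was 6.56 (SE 0.782; adjusted p = 0.00528), and 7.93 without WT replicate 3. In the nor-like1 libraries its mean level was the 175th highest of all listed genes, against the 12611th in WT. The next gene on chromosome 1, Solyc01g006390.2, has an extensin-like protein precursor as its hit and lies directly beside it in the RefSeq gene order of assembly SLM_r2.1. It measured 0, 0.18 and 2.41 FPKM in WT and 31.5, 23.6 and 53.9 FPKM in nor-like1, again without overlap and with WT replicate 3 the highest WT library. The fitted change was 5.32 on the log2 scale (SE 0.889; adjusted p = 0.0121), from summed counts of 20 in WT and 517 in nor-like1. With so few WT counts, the gene passed the filter on low counts only with its nor-like1 libraries. Without WT replicate 1 the change was 4.67, without WT replicate 3 it was 8.60, and without WT replicate 2 the adjusted p was 0.0528. It was 4.47 with limma on log2(FPKM + 1) and 6.38 on log2(FPKM + 0.1). The authors' deposited table gives this gene a log2 fold change of 1.22 with an adjusted p of 0.0529, the only called member above 0.05 there. The DESeq2 test run here gave it 5.44 (adjusted p = 0.00258). The deposited log2 fold change was also smaller for Solyc01g006400.4, at 3.23, but close for SlNOR-like1, at -2.53. The reason for these differences was not tested.

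A further pistil-specific extensin-like gene, Solyc02g078040.3, was already present in WT at 6.25, 12.1 and 13.5 FPKM and reached 43.2, 31.9 and 50.7 FPKM in nor-like1. All nor-like1 libraries were above all WT libraries, at a fitted log2 change of 2.01 (SE 0.303; adjusted p = 0.00834) and was called with each library left out. Its neighbour with the same description, Solyc02g078050.5, stayed between 0.09 and 0.5 FPKM in all libraries and was not tested. The last of the 5, Solyc05g053960.3, had a fitted log2 change of -0.31 (SE 0.249; adjusted p = 0.398).

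Extensin-2 (Solyc09g098510.4), whose hit carries the same name, was almost undetected in WT at 0.02, 0.05 and 0.06 FPKM and reached 5.38, 3.73 and 3.55 FPKM in nor-like1. Summed counts were 7 in WT and 509 in nor-like1. Scaled for depth, this is a ratio of 110 (exact 95% counting interval 53.1 to 275). The fitted log2 fold change was 6.67 (SE 0.369; adjusted p = 0.000532), and 2.31 with limma on log2(FPKM + 1), where the added 1 shrinks the change of genes near 0. A gene of the Ole e 1 allergen and extensin family (Solyc02g089250.4; best hit formin-2) was listed at 0.10, 0 and 0 FPKM in WT and at 1.85, 0.73 and 0.55 FPKM in nor-like1. Summed counts were 3 in WT and 56 in nor-like1, for a ratio of 28.3 (counting interval 9.19 to 141). The fitted log2 fold change was 4.60 (SE 0.942; adjusted p = 0.0169), and 0.93 with limma on log2(FPKM + 1) and 3.01 on log2(FPKM + 0.1). Leaving out WT replicate 1 gave 7.40 and leaving out nor-like1 replicate 1 gave 3.90, and without WT replicate 2 the adjusted p was 0.066. These 2 genes passed the filter on low counts only through their nor-like1 libraries, so that a difference was a condition of their being tested.

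The most abundant members of the extensin class in WT belong to the Ole e 1 family, small secreted proteins first known as pollen allergens. Solyc12g005150.2, which fell, measured 306, 346 and 382 FPKM in WT and 200.3, 229 and 235 FPKM in nor-like1. The genotypes did not overlap (log2 fold change -0.62, SE 0.120, adjusted p = 0.0142; adjusted p = 0.0619 without WT replicate 2). Solyc04g054810.3, whose hit is the pollen-specific protein C13, was the most abundant member in WT at 373, 335 and 402 FPKM and measured 311, 513 and 478 FPKM in nor-like1. Here the genotypes overlapped, nor-like1 replicate 1 being the lowest of all 6 libraries. The log2 fold change was 0.25 (SE 0.200; adjusted p = 0.401), and leaving out nor-like1 replicate 1 brought the adjusted p to 0.0488.

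The other genes described as extensins were not called. The 4 genes described as Dif10 and the one described as Dif54 were at or below 0.83 FPKM in every library and were not tested. The gene described as extensin (Solyc05g008100.1) had a fitted log2 change of -0.97 (SE 0.499; adjusted p = 0.198), and extensin-1-like (Solyc03g117190.1) had -0.23 (SE 0.286; adjusted p = 0.595). Leucine-rich repeat extensins, which join a leucine-rich repeat domain to an extensin domain, were at or below 2.79 FPKM in every library, and 1 of 4 was tested. The untested leucine-rich repeat extensin-like protein 6 (Solyc01g065510.3), chosen after its values were seen, was listed at 0.14, 0 and 0.22 FPKM in WT and at 0.87, 1.61 and 2.25 FPKM in nor-like1. Without a low-count filter its log2 fold change was 3.49 (SE 0.754; adjusted p = 0.017), from 5 and 38 counts.

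**Figure D3:**
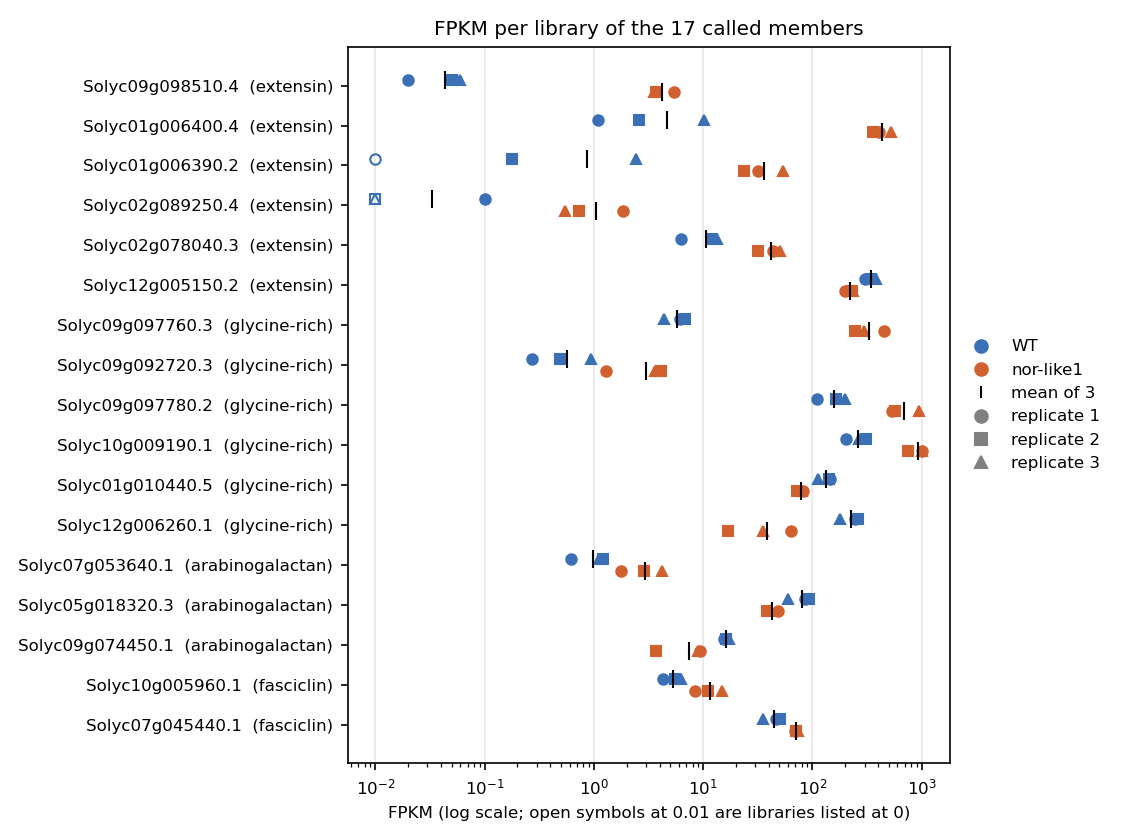
FPKM in each library (horizontal axis, log scale) of the 17 called members (vertical axis), with WT in blue, nor-like1 in orange, a symbol per replicate and a bar for the mean of 3. The genotypes do not overlap for any of these genes, which were picked by a test on the same libraries. Extensin and glycine-rich genes span the widest gaps. Among them, Solyc09g098510.4 and Solyc02g089250.4 passed the filter on low counts through nor-like1 alone. At least Solyc01g006390.2 and Solyc09g092720.3 also passed it only with their nor-like1 libraries.

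Glycine-rich proteins had 17 of 20 genes tested, with 4 higher (23.5%), 2 lower (11.8%) and 11 not called. Of all genes, 10.5% were called higher and 11.4% lower, so the share lower was near that of all genes. The class median log2 fold change was -0.05. The 4 that rose include the most abundant members of all classes in nor-like1. Solyc10g009190.1, whose best hit is a glycine-rich cell wall structural protein, measured 204, 310.3 and 266 FPKM in WT and 1017, 758 and 1008 FPKM in nor-like1. The genotypes were well apart (log2 fold change 1.82, SE 0.175, adjusted p = 0.00235), and the gene was called with each library left out.

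A pair of glycine-rich genes close together on chromosome 9 rose with a cell wall protein gene between them. Solyc09g097760.3 (best hit glycine-rich protein DC9.1-like) measured 6.12, 6.83 and 4.37 FPKM in WT and 448, 247 and 299 FPKM in nor-like1. Its log2 fold change of 5.86 (SE 0.314; adjusted p = 0.000532) was called with each library left out and stayed between 5.59 and 6.02 in all alternatives. Solyc09g097780.2, whose hit is a CORA-like protein of the cold and drought-regulated kind, measured 111, 163 and 199 FPKM in WT and 533, 571 and 949.7 FPKM in nor-like1. It too showed no overlap between genotypes, at a fitted log2 change of 2.14 (SE 0.295; adjusted p = 0.00652), called with each library left out. Between them in identifier order lies Solyc09g097770.3, no member, described as a cell wall protein and named TLRP (tyrosine- and lysine-rich protein), which is known from xylem walls in tomato. TLRP measured 6.52, 16.0 and 44.0 FPKM in WT and 196, 405 and 449 FPKM in nor-like1 (log2 fold change 4.01, SE 0.717, adjusted p = 0.0147). The log2 fold change was 4.99 without WT replicate 3, and its adjusted p was 0.0679 on leaving out WT replicate 2 and 0.0517 on leaving out nor-like1 replicate 2.

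**Figure D4:**
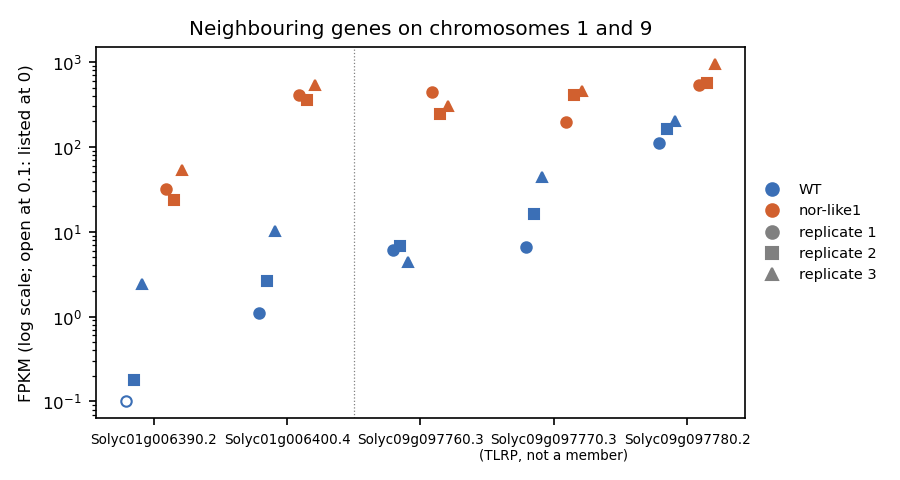
FPKM per library (vertical axis, log scale) of neighbouring genes on chromosome 1 (the pair of pistil extensins, left) and chromosome 9 (glycine-rich genes with TLRP between them, right), with a symbol per replicate. In all of them each nor-like1 library lies above each WT library, and WT replicate 3 is the highest WT library in all but Solyc09g097760.3.

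In identifier order, 11 members lay in 5 places where members adjoin or have 1 listed gene between them. Beside the pairs above, these are 3 Dif10 genes on chromosome 1, the pistil extensins of chromosome 2 and the FLA9 genes on chromosome 7. Reads of similar neighbours can be divided between them by the estimated counting, so that the level of each single copy is uncertain.

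The last glycine-rich gene that rose, Solyc09g092720.3 (glycine-rich protein 3 short isoform-like), was scarce. It measured 0.27, 0.49 and 0.94 FPKM in WT and 1.30, 4.12 and 3.65 FPKM in nor-like1, with nor-like1 replicate 1 close to WT replicate 3. With summed WT counts of 32, the gene passed the filter on low counts only with its nor-like1 libraries. Its log2 fold change of 2.41 (SE 0.583; adjusted p = 0.0282) was 3.00 without WT replicate 3 and 1.30 with limma on log2(FPKM + 1). The adjusted p was 0.0826 and 0.104 without WT replicates 1 and 2, and 0.102 and 0.0881 without nor-like1 replicates 2 and 3.

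The deepest fall of any member was that of Solyc12g006260.1, described as a protein that interacts with a glycine-rich protein and so no glycine-rich protein by its name. It measured 246, 260.3 and 178 FPKM in WT and 64.3, 16.9 and 34.96 FPKM in nor-like1, with all WT libraries above all nor-like1 libraries. Its log2 fold change was -2.58 (SE 0.457; adjusted p = 0.0143), and -3.16 without nor-like1 replicate 1. The adjusted p was 0.0546 on leaving out WT replicate 2 and 0.0567 on leaving out nor-like1 replicate 3. Solyc01g010440.5, a glycine-rich protein whose hit is uncharacterized, measured 146, 140.7 and 112 FPKM in WT and 82.6, 71.9 and 81.0 FPKM in nor-like1. It fell with no overlap (log2 fold change -0.72, SE 0.136, adjusted p = 0.0132). The adjusted p rose to 0.0501 and 0.0587 on leaving out WT replicates 1 and 2, and to 0.0546 and 0.0514 on leaving out nor-like1 replicates 2 and 3.

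The other 11 tested glycine-rich genes, none of them called, had log2 fold changes between -0.89 and 0.25. They include the abundant glycine rich protein X55695 (Solyc02g014310.4), at 113 FPKM on average in WT and 111 FPKM in nor-like1, at a fitted log2 change of -0.01 (SE 0.138; adjusted p = 0.966). Glycine-rich protein A3 (Solyc01g081450.3) varied more within genotypes than between them, with 60.67, 48.04 and 107.5 FPKM in WT and 59.96, 114.6 and 59.05 FPKM in nor-like1.

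Of the 4 proline-rich proteins, 2 were tested with edgeR and 0 called, and 0 passed at an unadjusted p under 0.05. DESeq2 called 1 of them, Solyc10g054900.2 (best hit proline-rich protein 4-like), with an adjusted p of 0.0412. It measured 4.11, 3.50 and 15.6 FPKM in WT and 16.2, 15.7 and 27.0 FPKM in nor-like1. WT replicate 3 was close to the mutant libraries, and the other WT libraries were well below. The log2 fold change was 1.35 (SE 0.594; adjusted p = 0.153) with all libraries and 2.34 (adjusted p = 0.00426) without WT replicate 3. The second tested gene, Solyc09g055870.2, is described as PRCC, which is known in animals as a nuclear protein and not as a wall protein. It measured 18.4, 19.5 and 21.4 FPKM in WT and 19.0, 17.1 and 17.5 FPKM in nor-like1, with overlap (log2 fold change -0.11, SE 0.0995, adjusted p = 0.434). The proline-rich protein Solyc12g009650.2 was at or below 0.43 FPKM in every library and was not tested.

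Arabinogalactan proteins outside the fasciclin group had 8 of 12 genes tested, with 1 higher, 2 lower and 5 not called. The matching shares of all genes were 10.5% higher and 11.4% lower, a comparison that was not tested. The class median log2 fold change was -0.32. Both genes with the lowest adjusted p in this class had best hits of another kind. Solyc05g018320.3, with the ninja-family hit, measured 85.7, 93.6 and 60.4 FPKM in WT and 48.5, 38.8 and 42.1 FPKM in nor-like1, without overlap. Its log2 fold change was -0.87 (SE 0.187; adjusted p = 0.0197). The call was lost on leaving out WT replicates 1 and 2 (0.0658 and 0.0749) and nor-like1 replicates 2 and 3 (0.0775 and 0.0742). Solyc07g053640.1, described as an arabinogalactan protein but with a GATA zinc finger domain-containing hit, measured 0.62, 1.21 and 1.12 FPKM in WT and 1.76, 2.89 and 4.22 FPKM in nor-like1. The lowest mutant library was above the highest WT library (log2 fold change 1.62, SE 0.413, adjusted p = 0.0331), and the change was 0.96 with limma on log2(FPKM + 1). The adjusted p was 0.0995 and 0.0822 without WT replicates 1 and 2, and 0.097 and 0.107 without nor-like1 replicates 2 and 3.

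Classical arabinogalactan protein 26 (Solyc09g074450.1), with a hit of the same name, was the classical arabinogalactan gene called. It measured 15.4, 16.4 and 17.1 FPKM in WT and 9.28, 3.72 and 9.06 FPKM in nor-like1, so that every nor-like1 library was lower. The log2 fold change was -1.17 (SE 0.342) with an adjusted p of 0.0495, just under the threshold. It was not called with DESeq2 size factors (0.0509) or without any 1 library other than nor-like1 replicate 1, where the adjusted p lay between 0.065 and 0.133: 0.119, 0.133 and 0.065 without WT replicates 1 to 3, and 0.0826 and 0.0858 without nor-like1 replicates 2 and 3.

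AGP-1 (Solyc02g092790.4), a lysine-rich arabinogalactan protein characterized in tomato, measured 24.9, 21.2 and 28.1 FPKM in WT and 15.01, 20.6 and 15.9 FPKM in nor-like1. The groups came close without overlapping, and the log2 fold change of -0.50 (SE 0.162) had an adjusted p of 0.0655. The adjusted p was 0.0362 with DESeq2 and 0.0495 without nor-like1 replicate 2. Classical arabinogalactan protein 5 (Solyc04g074730.1), the most abundant member of the class in nor-like1, measured 72.7, 47.6 and 91.9 FPKM in WT and 81.0, 107 and 119 FPKM in nor-like1. Its genotypes overlapped through WT replicate 3 (log2 fold change 0.51, SE 0.255, adjusted p = 0.189).

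Fasciclin-like arabinogalactan proteins (FLAs) had 8 of 16 genes tested, with 2 higher, 0 lower and 6 not called. Here too the shares of all genes were 10.5% higher and 11.4% lower, and the comparison was not tested. The class median log2 fold change was 0.61. FLA2 (Solyc07g045440.1) measured 46.0, 51.1 and 35.6 FPKM in WT and 68.7, 70.4 and 73.9 FPKM in nor-like1. All nor-like1 libraries were above all WT libraries, at a fitted log2 change of 0.70 (SE 0.152; adjusted p = 0.0205). Leaving out WT replicate 1 gave an adjusted p of 0.0598, and leaving out nor-like1 replicates 2 and 3 gave 0.0684 and 0.0737. A gene with FLA1 as its best hit (Solyc10g005960.1) measured 4.31, 5.50 and 6.22 FPKM in WT and 8.51, 11.1 and 14.9 FPKM in nor-like1. It rose without overlap (log2 fold change 1.12, SE 0.238, adjusted p = 0.019). The adjusted p was 0.0644 and 0.069 without WT replicates 1 and 2, and 0.0627 and 0.0569 without nor-like1 replicates 2 and 3.

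FLA17 (Solyc10g081720.2), the most abundant FLA in both genotypes, measured 68.5, 80.7 and 124 FPKM in WT and 126, 148 and 129 FPKM in nor-like1. WT replicate 3 was almost level with nor-like1 replicate 1, and the log2 fold change of 0.59 (SE 0.211) had an adjusted p of 0.0868. It was called without WT replicate 3 (log2 fold change 0.85, adjusted p = 0.00701) and with DESeq2 (0.0362). The FLA10 homolog (Solyc01g091530.5) measured 36.0, 39.2 and 37.3 FPKM in WT and 28.9, 33.7 and 41.6 FPKM in nor-like1. Its genotypes overlapped, and the log2 fold change was -0.09 (SE 0.144; adjusted p = 0.68). One of the FLA9 genes (Solyc07g053540.1) was even in WT, at 5.76 ± 0.0929 FPKM, and lower but uneven in nor-like1, at 2.14 ± 1.86 FPKM (SD, n = 3 each). Its log2 fold change was -1.46 (SE 0.599; adjusted p = 0.122).

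WT replicate 3 was the highest WT library for 7 of the 12 members that rose and the lowest for 3 of the 5 that fell. Among all genes called higher, it was the highest WT library for 64.2%, a share that the 7 of 12 did not exceed. The matching share among all genes called lower was not computed, so the 3 of 5 has no background. The part of this library in the results was not tested.

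**Figure D5:**
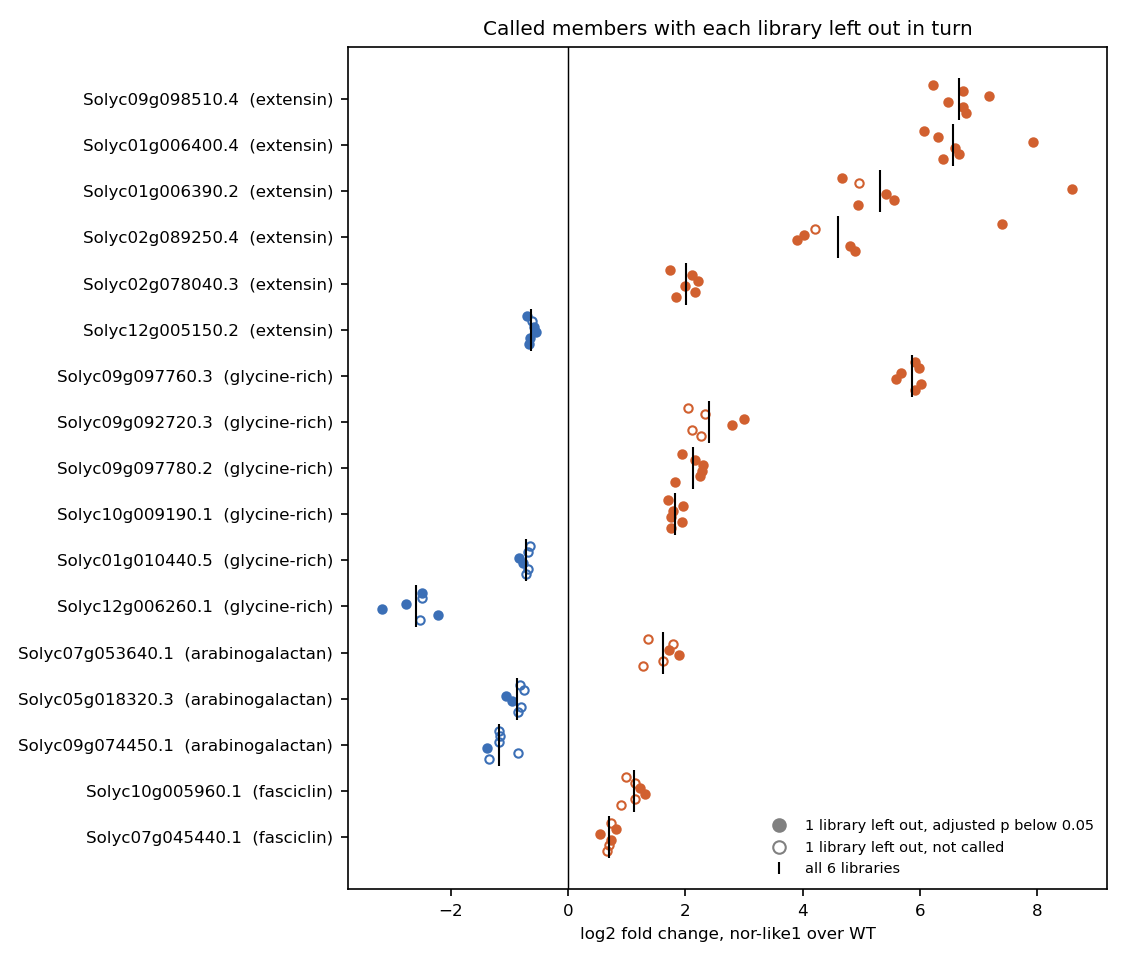
Log2 fold change of nor-like1 over WT (horizontal axis) for the 17 called members with all 6 libraries (bar) and with each library left out in turn (points, from the top of each gene WT replicates 1 to 3 and nor-like1 replicates 1 to 3, filled where the adjusted p was below 0.05). No point crosses 0, while 11 of the 17 members lose their call in at least 1 of the refits.

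Most enzyme genes for the hydroxylation and arabinosylation of these proteins were not called, and those called went in both directions. A list drawn from product descriptions matched 1 gene, prolyl 4-hydroxylase 1 (Solyc11g005200.2; log2 fold change -0.07, SE 0.179, adjusted p = 0.805). It was therefore widened, after the descriptions had been read, to 13 genes that are prolyl 4-hydroxylases by description or best hit or are described as hydroxyproline O-arabinosyltransferases. Of the 12 tested, 2 were higher, 2 lower and 8 not called, against 10.5% and 11.4% of all genes called higher and lower, with a median log2 fold change of 0.30. Among 3 arabinosyltransferase genes, Solyc12g044760.3 measured 2.66, 2.09 and 1.97 FPKM in WT and 5.98, 3.85 and 4.09 FPKM in nor-like1 (log2 fold change 1.07, SE 0.262, adjusted p = 0.0291). The more abundant Solyc11g064850.2 went the other way, with 22.9, 20.4 and 20.4 FPKM in WT and 13.9, 13.2 and 14.5 FPKM in nor-like1 (log2 fold change -0.60, SE 0.106, adjusted p = 0.0109).

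The third arabinosyltransferase gene, Solyc08g041770.3, measured 10.4, 12.1 and 16.2 FPKM in WT and 21.0, 19.6 and 17.5 FPKM in nor-like1 (log2 fold change 0.61, SE 0.169, adjusted p = 0.0417). It lost its call with limma (0.0521 and 0.0531), and without any 1 library other than WT replicate 3: 0.12 and 0.137 without WT replicates 1 and 2, and 0.0832, 0.123 and 0.0766 without nor-like1 replicates 1 to 3. For Solyc12g044760.3 the adjusted p was 0.102 on leaving out WT replicate 2 and 0.0588, 0.0583 and 0.0627 on leaving out nor-like1 replicates 1 to 3. Of the hydroxylases, a homolog of prolyl 4-hydroxylase 9 (Solyc02g064750.4), the most abundant of the list, fell from 84.6, 86.9 and 96.4 FPKM in WT to 62.4, 51.9 and 60.5 FPKM in nor-like1. Its genotypes did not overlap (log2 fold change -0.60, SE 0.107, adjusted p = 0.0113), and it was called with each library left out.

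The 31 members that were not tested had low counts in both genotypes, with 4.97 FPKM as the highest value in any library. Of these, 11 were listed in all 6 libraries and 11 in 3 or fewer. A floor of 3 counts corresponds to 0.174 CPM (counts scaled to library size) in the deepest library and 0.356 CPM in the shallowest. Differences of most of these genes could therefore not be resolved at this depth. Leucine-rich repeat extensin-like protein 6, chosen after its values were seen, was called in the edgeR refit without the filter (adjusted p = 0.017, from 5 and 38 counts). Such floors and the counting intervals above cover counting error only.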

How the data were processed

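RNA was sequenced from 3 WT and 3 nor-like1 exocarp libraries; per the labels' protocols, the preparation followed MGI. Each deposited library table lists a gene's expected counts, as RSEM estimates them, and its FPKM, per the file headers. The submitters' processing notes name HISAT2, StringTie, Bowtie2 and RSEM; no source used here gives the genome build, the annotation or whether strand was used. A gene absent from a library's table was set to 0 there. A DESeq2 table that the authors deposited holds log2 fold changes and adjusted p-values and was used only where named.

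The expected counts were rounded to whole numbers. The test was edgeR 4.0.16 (R 4.3.3), a robust quasi-likelihood fit on genotype alone, after filterByExpr and TMM scaling. It covered 16380 genes, with Benjamini-Hochberg adjustment over all of them and calls below 0.05. An adjusted p comes from this test unless DESeq2 1.42.0 or limma 3.58.1 is named. Fold changes compare nor-like1 with WT; the SE is their size divided by the root of F. The procedure was tested on simulated data. Libraries of a genotype differed beyond sampling noise (chi-square per gene 10.9 to 49.1). Named genes are every called member, the 3 most abundant members of each class and called enzyme genes; any others were chosen after their values were seen. The members and lists were chosen with earlier results of these data known. Best protein hits linked 53 members to RefSeq. In 2 pairs of untested members the counts were identical in all libraries. Alternatives were DESeq2 size factors, the DESeq2 test, no low-count filter, limma on log2(FPKM + 1) and log2(FPKM + 0.1), a replicate block and each library left out.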

Additional observations from a re-analysis of the deposited data

How the results depend on the processing

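The direction of all 17 called members held in all 12 alternatives, and 6 of them were called in each. With 1 library left out, the number of all genes called lay between 1139 and 4742, members called higher between 7 and 16 and members called lower between 0 and 6. By class, these ranges were 3 to 7 higher and 0 to 2 lower for extensins (pistil extensins 2 to 3 higher), 3 to 4 and 0 to 2 for glycine-rich proteins, 0 to 1 higher for proline-rich proteins, 0 to 1 and 0 to 2 for arabinogalactan proteins and 0 to 4 higher for fasciclin-like proteins. The widened enzyme list gave 0 to 3 higher and 2 to 3 lower. The FLA10 homolog (Solyc01g091530.5) ranged from -0.23 to 0.03 on the log2 scale, changing sign without nor-like1 replicate 1. The cause was not tested. DESeq2 size factors left 1 arabinogalactan gene called lower, the DESeq2 test called 1 proline-rich gene higher, and limma with either pseudocount called 1 gene of the widened enzyme list higher.

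The deviations of same-numbered libraries from their genotype means correlated at r = 0.246, -0.268 and 0.0532 for numbers 1 to 3. With 3 libraries per genotype, these values cannot decide whether the numbers pair the samples. With the replicate block, 2626 genes were called in place of 3585, with 13 members higher and 4 lower, 1 proline-rich gene higher, 1 arabinogalactan gene lower and 1 gene of the widened enzyme list higher. Adjusted p-values with the block were 0.0268 for Solyc10g054900.2, 0.0701 for arabinogalactan protein 26 (Solyc09g074450.1) and 0.0749 for Solyc08g041770.3. Genes of a few counts, such as extensin-2 in WT, are limited by depth.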
